A study of Lotus japonicus with 18 samples.

Results

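The subject is the comparison of the 2 Ljmyb36 mutant lines with each other in shoots of the legume Lotus japonicus grown without added salt. The 6 libraries were chosen by genotype and treatment, 3 labelled Lmyb36-1 (line 1) and 3 labelled Lmyb36-2 (line 2), of 18 in the series. All 6 came from shoots of plants fed 'Hornum' nutrient solution for 34 days and sampled 4 hours into the light period. The submitters call the mutants knockouts of the gene LjMYB36, and the labels do not say where the mutation of either line lies or how the lines were made. WT shoots grown in the same way (3 libraries) and shoots of both lines given NaCl in steps of 50 mM up to 100 mM (3 libraries each) are used to place the line difference. These libraries and those of WT shoots given NaCl also enter the expression filter and the main fit's estimate of each gene's spread. Each mutant group is 1 line, and the labels call the replicates biological without naming separate plants, pots or pools, so p-values measure the spread between these libraries.

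The MYB36 protein regulates transcription; in Arabidopsis roots it switches on genes that build the Casparian strip, the lignin barrier of the endodermis. Separate mutant lines of a gene are compared in plant genetics because changes that follow from the gene itself should be shared, whereas each line can also carry differences of its own. A comparison of line against line, unlike one of either line with WT, shows which transcripts set the lines apart from each other.

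Expression was measured as FPKM (fragments per kilobase of gene, scaled to the reads of the library) for 33994 table entries, of which 20433 came to 1 FPKM or more in 3 or more of the 18 libraries and were tested. The 6 libraries held 42125949 to 101713201 reads recovered from the FPKM values. Within groups, the first principal component (30.8% of the variance) placed 9 of the 18 libraries in a lower set and 9 in an upper set. Line 1 replicate 1 (101713201 reads) and line 2 replicates 1 and 2 (90456482 and 74077091) were in the lower set, and line 1 replicates 2 and 3 (42125949 and 44063872) and line 2 replicate 3 (53320674) in the upper set, so set and depth moved together. The change of each called gene was therefore also computed within each set. In each of the 6 libraries the 4 leghemoglobin genes of nodules and the 5 genes of root Casparian strip membrane proteins were at or under 0.125 FPKM, whereas the 86 photosystem and light-harvesting genes in the table summed to between 70915 and 93871 FPKM. Of seed genes 3 and of flower and pollen genes 8 could be tested, with 0 called between the lines (0 at an unadjusted p under 0.05, and 0 and 0 with limma voom).

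The table describes 5 genes as MYB36 by similarity, without stating which is LjMYB36. LotjaGi4g1v0091600 (chromosome 4, 12168340 to 12170131, plus strand) was read at 5.04, 3.98 and 3.54 FPKM in the 3 line 1 libraries and at 3.67, 4.58 and 3.81 FPKM in the 3 line 2 libraries. LotjaGi1g1v0688400 stood at 1.27, 1.85 and 2.26 FPKM in line 1 and at 2.99, 3.15 and 2.23 in line 2. For these genes and LotjaGi3g1v0486500 the line ranges overlapped, and the log2 changes of line 2 against line 1 were -0.05 (95% interval -0.50 to 0.41), 0.53 (-0.05 to 1.11) and 0.06 (-0.57 to 0.68). Of the 3 that could be tested, limma called 0 at an adjusted p under 0.05 and 0 at an unadjusted p under 0.05, and limma voom on the recovered reads called 0 and 1. The other two did not pass the expression filter; LotjaGi4g1v0298100 had 2.22, 1.19 and 0.801 FPKM in line 1 and 0.781, 0.891 and 0.639 in line 2.

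Without salt few transcripts passed the test between shoots of the lines. Limma (two-sided, Benjamini-Hochberg adjusted over all 20433 genes, threshold 0.05) called 30 genes, which is 0.147% of those tested: 13 were higher in line 2 (0.0636%) and 17 were lower (0.0832%). The described genes with the smallest adjusted p-values were those of an AGD14-like regulator of vesicle traffic, lower in line 2, and of a pentatricopeptide repeat protein and a spastin-like ATPase, higher in line 2. The count depended on the fit: it was 400 with array weights, 19 with limma voom on the recovered reads (16 of the 30 among them), 12 in the upper set alone and 8 when only genes averaging 5 FPKM or more were tested. With only the groups compared in the fit, 22 genes were called, 21 of the 30 among them. At an unadjusted p under 0.05 the main fit gave 749 genes, or 3.67%. Of the 30, 25 differed 2-fold or more. Log2 changes are differences of log2(FPKM + 0.5), so the pseudocount shrinks those of weakly expressed genes. The median absolute log2 change over all tested genes was 0.10, and for 19124 genes (93.6%) the 95% interval of the change lay within 2-fold in either direction.

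Assembled transcripts and gene models ending in _LC made up a larger share of the called genes than of those tested. Of the 30, 6 (20%, against 7.73% of the genes tested) had identifiers unlike those of gene models and are here called assembled transcripts. The submitters' processing notes name no assembler. Another 13 were gene models whose identifier ends in _LC (43.3% against 9.77%) and 11 were other gene models (36.7% against 82.5%). A Swiss-Prot name was given for 12, a Pfam family alone for 5 and no description for 13. Among all 33994 entries of the table, tested or not, 22023 had a Swiss-Prot name and 3599 a Pfam family alone. The higher of the line means had a median of 5.33 FPKM, beside 6.67 FPKM over all tested genes. It was under 5 FPKM for 14 genes and above 20 FPKM for 2, and the shares of these over all tested genes were not counted. In the line with the higher level each called gene had at least 49 recovered reads in every library, and 0 of the 30 overlapped another entry of the table.

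**Figure D1:**
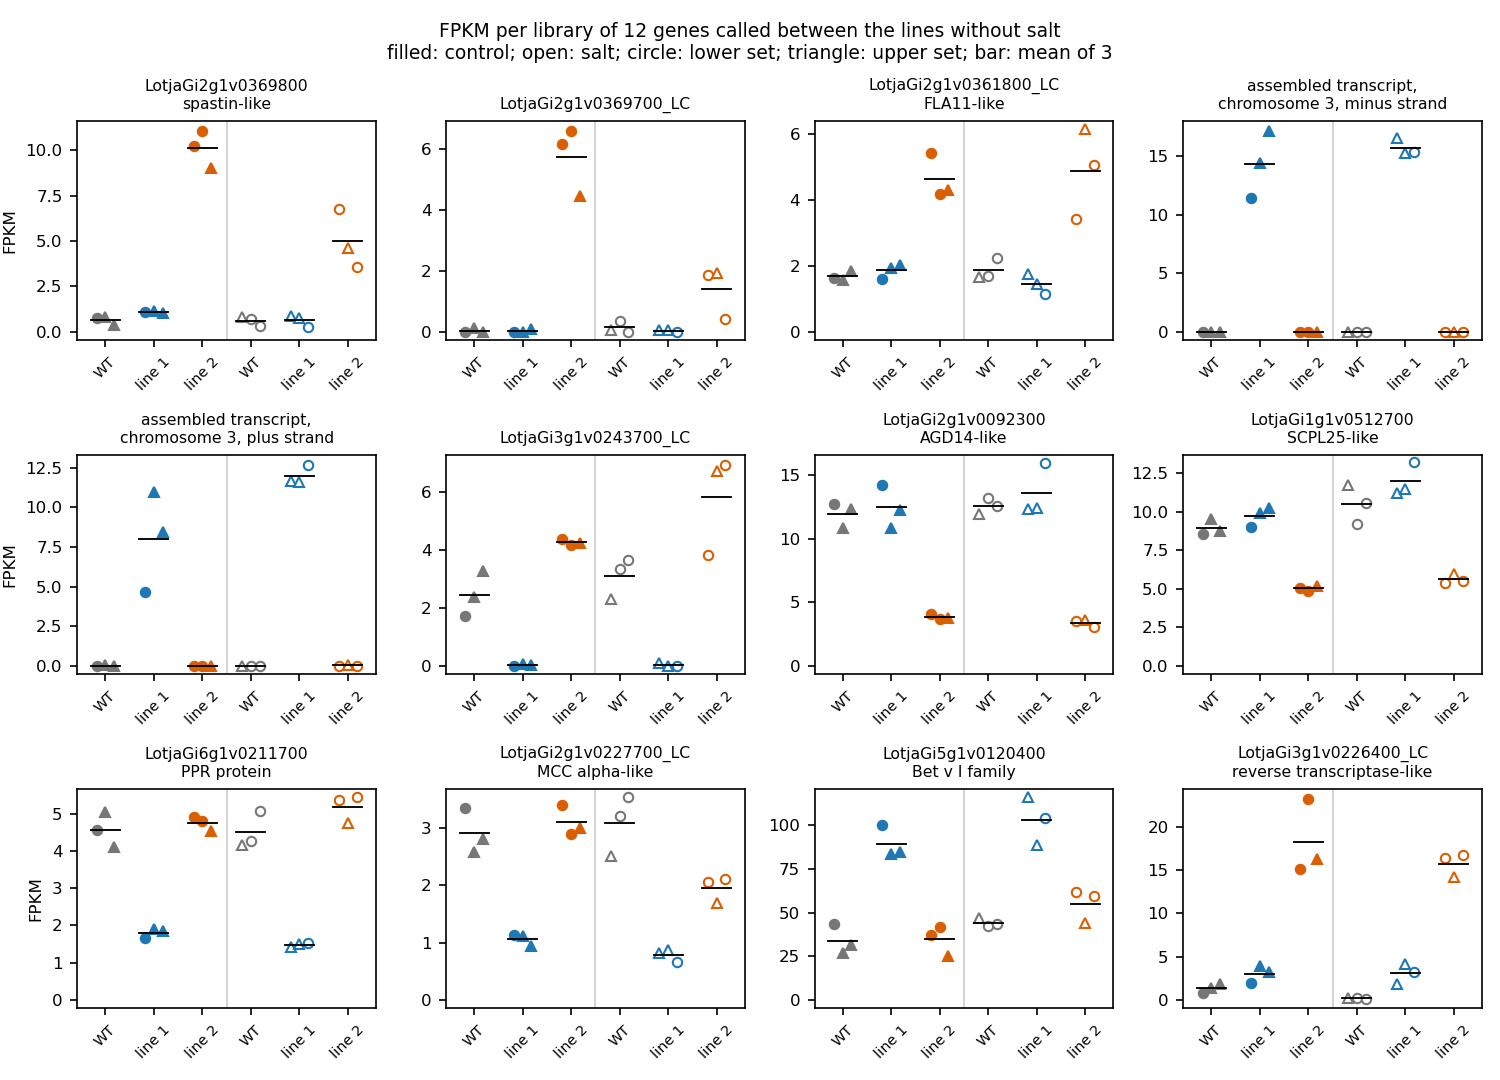
FPKM (vertical axes, linear) in each of the 3 libraries of WT, line 1 and line 2, in control (filled) and salt (open), for 12 of the genes called between the lines without salt; circles are libraries of the lower set, triangles those of the upper set, and bars are means of 3. In every panel the line 1 and line 2 control libraries do not overlap, for the spastin-like gene at 1.05 to 1.16 against 9.04 to 11.1 FPKM.

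The largest group of neighbours lay on chromosome 2, and all of its called members were higher in line 2. LotjaGi2g1v0369800 (chromosome 2, 86699372 to 86703028, plus strand) encodes a protein similar to zebrafish spastin, an ATPase of the AAA family that severs microtubules. It was read at 1.07, 1.16 and 1.05 FPKM in line 1 and at 10.3, 11.1 and 9.04 FPKM in line 2, with means of 1.09 ± 0.0564 and 10.1 ± 1.02 (SD, n = 3; log2 change 2.73, SE 0.26, adjusted p = 2.36e-05). WT control libraries stood at 0.745, 0.808 and 0.371 FPKM, so line 2 lay far above both other genotypes. LotjaGi2g1v0369700_LC (chromosome 2, 86697554 to 86698916, plus strand), which has no description and ends 455 bases before the spastin-like gene, was at 0, 0 and 0.0929 FPKM in line 1 and at 6.16, 6.58 and 4.47 in line 2 (log2 change 3.54, SE 0.31, adjusted p = 1.18e-05). LotjaGi2g1v0372800_LC, also undescribed and 269 kb further along, was at 0, 0 and 0.0944 FPKM in line 1 and at 2.52, 2.14 and 1.90 in line 2 (log2 change 2.34, SE 0.18, adjusted p = 1.88e-06). Both were near 0 in line 1 and in WT alike, and reached the 1 FPKM of the expression filter in line 2 alone. LotjaGi2g1v0361800_LC, 779 kb on the other side, resembles FLA11, an arabinogalactan protein known in Arabidopsis from secondary cell walls. Its values were 1.61, 1.94 and 2.02 FPKM in line 1 and 5.41, 4.17 and 4.30 FPKM in line 2, with no overlap (log2 change 1.12, SE 0.18, adjusted p = 0.0124), and its call was lost when line 1 replicate 1 or 2, or line 2 replicate 1 or 3, was left out.

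None of the other genes around them was called. Within 1 Mb on either side of the spastin-like gene 162 genes were tested and 4 were called, and the log2 changes of the others ran from -0.51 to 0.64 with a median of -0.01. The raised level was thus read at single genes and not over the whole stretch.

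**Figure D2:**
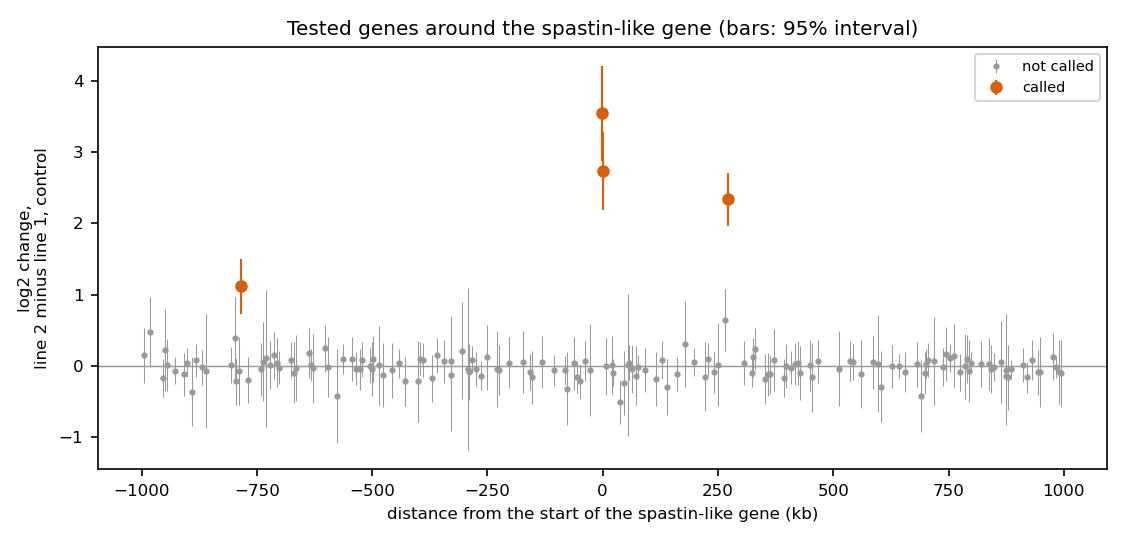
Log2 change of line 2 against line 1 in control (vertical axis, with the 95% interval as a bar) of the 162 tested genes within 1 Mb of the start of the spastin-like gene (horizontal axis, distance in kb). The 4 called genes (orange) stand above the others, which lie between -0.51 and 0.64.

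In 8 genes, every control library of one line was at or under 0.1 FPKM and every control library of the other at or over 1 FPKM. All 8 were called by limma, but the rule picks a wide gap in the same libraries as the test, so these calls are no separate support. Some of the 8 also passed the expression filter only through the line in which they were high. Line 2 was near 0 for 5 of them and line 1 for 3. Those without a description are named here after their values were seen. An assembled transcript on the minus strand of chromosome 3 (55167315 to 55169249) was read at 11.4, 14.4 and 17.2 FPKM in line 1, which is 1505, 712 and 897 recovered reads, and at 0 in all 3 line 2 libraries. WT control was at 0 in all 3 libraries as well, so the transcript was detected in line 1 alone. Against a floor of 3 reads per library, line 1 was at least 322-fold higher than line 2 (log2 change -4.87, SE 0.15, adjusted p = 4.71e-12). WT and line 2 were at 0 with salt as well, so the transcript passed the expression filter through line 1 alone. Libraries at 0 add no spread to the estimate, which lowers this SE and p-value. The adjusted p with limma voom was 0.00230. A second assembled transcript, on the plus strand of the same chromosome (62059063 to 62065168), stood at 4.63, 11.0 and 8.46 FPKM in line 1 and at 0 in all 3 line 2 libraries, at least 72.6-fold apart (log2 change -4.01, SE 0.22, adjusted p = 2.41e-08). WT control libraries were at 0, 0.0441 and 0 FPKM. This transcript too passed the filter through line 1 alone, and its adjusted p with limma voom was 0.0573.

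The other genes near 0 in line 2 were present in WT. An assembled transcript on the plus strand of chromosome 1 (131181668 to 131183526) had 2.00, 1.86 and 2.96 FPKM in line 1, 0, 0 and 0.0189 in line 2 and 4.95, 4.94 and 4.04 in WT control (log2 change -2.43, SE 0.20, adjusted p = 4.10e-06). LotjaGi4g1v0036000_LC (chromosome 4, 4344824 to 4345693, plus strand) had 1.08, 1.74 and 1.33 FPKM in line 1 and 0, 0.0426 and 0.0202 in line 2 (log2 change -1.84, SE 0.31, adjusted p = 0.0181), and its call was lost when any of the 6 libraries but line 1 replicate 1 was left out. LotjaGi1g1v0742400_LC, 428 kb after the chromosome 1 transcript, carries the Swiss-Prot name of an Arabidopsis secretory carrier-associated membrane protein but a Pfam match to the Mlo family of membrane proteins, so its identity is not settled by the table. It was at 2.80, 2.69 and 2.92 FPKM in line 1 and 0.0221, 0 and 0 in line 2 (log2 change -2.70, SE 0.29, adjusted p = 1.24e-04), with WT control between them at 0.252, 0.821 and 0.453. This gene passed the expression filter through line 1 alone. The case with the opposite sign outside chromosome 2 was LotjaGi3g1v0243700_LC (chromosome 3, 39637619 to 39638676, plus strand), at 0, 0.0455 and 0.0214 FPKM in line 1, 4.38, 4.14 and 4.24 in line 2 and 1.72, 2.37 and 3.27 in WT control (log2 change 3.19, SE 0.22, adjusted p = 7.03e-07). With limma voom on the recovered reads 1 of the 8 genes was called after adjustment, the transcript on the minus strand of chromosome 3, and all 8 at an unadjusted p under 0.05.

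Among described genes the smallest adjusted p was that of LotjaGi2g1v0092300 (chromosome 2, 28274307 to 28286542, minus strand), lower in line 2 and similar to Arabidopsis AGD14, a GTPase-activating protein for the ARF proteins that drive vesicle budding. It was read at 14.2, 10.8 and 12.3 FPKM in line 1 and at 4.08, 3.69 and 3.78 FPKM in line 2, with means of 12.4 ± 1.70 and 3.85 ± 0.208 (SD, n = 3; log2 change -1.57, SE 0.12, adjusted p = 1.88e-06). WT control libraries, at 12.7, 10.8 and 12.3 FPKM, spanned much the same range as line 1. This gene and the transcript on the minus strand of chromosome 3 were the 2 of the 30 that were called in each of the 20 alternative settings. LotjaGi1g1v0512700, similar to Arabidopsis SCPL25 of the serine carboxypeptidase-like enzymes, was at 8.98, 9.92 and 10.2 FPKM in line 1 and 5.07, 4.88 and 5.15 in line 2 (log2 change -0.88, SE 0.10, adjusted p = 2.67e-04). It too was close to line 1 in WT, at 8.53, 9.53 and 8.73 FPKM. A probable lipid transfer protein gene, LotjaGi3g1v0505900, from a family that carries lipids in the cell wall, was at 15.9, 16.9 and 16.4 FPKM in line 1 and 9.85, 9.73 and 10.9 in line 2 (log2 change -0.66, SE 0.10, adjusted p = 0.00672), and its call was lost without line 1 replicate 2, line 2 replicate 1 or line 2 replicate 2, and with limma voom.

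Other described genes were set apart by line 1, with line 2 close to WT. LotjaGi6g1v0211700 (chromosome 6, 50880794 to 50890387, minus strand) encodes a pentatricopeptide repeat protein, a family that processes RNA in chloroplasts and mitochondria. It had 1.66, 1.89 and 1.84 FPKM in line 1, 4.91, 4.80 and 4.55 in line 2 and 4.58, 5.04 and 4.11 in WT control (log2 change 1.19, SE 0.11, adjusted p = 2.00e-05). LotjaGi2g1v0227700_LC, similar to the alpha subunit of methylcrotonoyl-CoA carboxylase, a mitochondrial enzyme of leucine breakdown, was at 1.13, 1.11 and 0.944 FPKM in line 1 and 3.40, 2.90 and 3.00 in line 2 (log2 change 1.2, SE 0.14, adjusted p = 3.98e-04). Both genes were thus lower in line 1 in each of its libraries. LotjaGi5g1v0120400, of the Bet v I family of small pathogenesis-related proteins, was the most abundant called gene. It had 100.1, 83.3 and 84.7 FPKM in line 1, 36.9, 41.9 and 25.2 in line 2 and 43.3, 26.7 and 31.2 in WT control (log2 change -1.38, SE 0.19, adjusted p = 0.00212). LotjaGi5g1v0169800, similar to a soybean sucrose-binding protein, was at 2.31, 2.81 and 2.73 FPKM in line 1 and 1.17, 0.969 and 0.904 in line 2 (log2 change -1.04, SE 0.16, adjusted p = 0.00611); without line 1 replicate 2 or 3, or line 2 replicate 3, it was no longer called.

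For 5 enzymes and membrane proteins the difference was close to the threshold and rested on all 6 libraries or nearly all. LotjaGi6g1v0238100, similar to rice BC10, a glycosyltransferase needed for cell wall strength, was at 2.91, 3.89 and 3.45 FPKM in line 1 and 6.15, 5.48 and 5.25 in line 2 (log2 change 0.65, SE 0.11, adjusted p = 0.0196). LotjaGi3g1v0447500_LC, similar to Arabidopsis Peroxidase 23, a secreted class III peroxidase, was at 0.477, 1.44 and 0.522 FPKM in line 1 and 2.86, 2.97 and 2.71 in line 2 (log2 change 1.42, SE 0.25, adjusted p = 0.0233). The BC10-like call was lost on leaving out any library but line 1 replicate 2, and so was the peroxidase call. LotjaGi5g1v0027600 has the C-terminal region of remorins, proteins of plasma membrane domains, and was at 1.08, 1.74 and 2.09 FPKM in line 1 and 4.44, 6.41 and 4.23 in line 2 (log2 change 1.38, SE 0.26, adjusted p = 0.0396). Both lines were below WT control, at 8.83, 12.1 and 9.68 FPKM. LotjaGi4g1v0422700, a transaldolase of the pentose phosphate pathway, was at 7.03, 7.35 and 9.0 FPKM in line 1 and 3.71, 4.05 and 4.48 in line 2 (log2 change -0.85, SE 0.16, adjusted p = 0.0396). LotjaGi1g1v0613100, a probable 2-isopropylmalate synthase, which commits carbon to leucine synthesis, was at 51.3, 56.1 and 53.8 FPKM in line 1 and 38.7, 37.6 and 33.2 in line 2 (log2 change -0.55, SE 0.10, adjusted p = 0.0396). The remorin and transaldolase calls were also lost with limma voom on the recovered reads. The last 3 genes were the closest to the threshold on its inner side, and each lost its call whichever of the 6 libraries was left out.

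The remaining called entries had domains of reverse transcriptases, the enzymes of retrotransposons, or no description. LotjaGi3g1v0226400_LC (chromosome 3, 34959668 to 34964184, plus strand), with a reverse transcriptase-like domain, was at 1.92, 3.91 and 3.26 FPKM in line 1, 15.2, 23.2 and 16.3 in line 2 and 0.784, 1.35 and 1.79 in WT control (log2 change 2.43, SE 0.27, adjusted p = 1.47e-04). LotjaGi5g1v0155800_LC, with a zinc-binding domain of reverse transcriptases, went the other way, at 1.88, 1.92 and 1.60 FPKM in line 1 and 0.400, 0.406 and 0.286 in line 2 (log2 change -1.41, SE 0.20, adjusted p = 0.00316). A pair of undescribed models 3704 bases apart on chromosome 3 differed in the same direction. LotjaGi3g1v0317900_LC (chromosome 3, 67247779 to 67248615, plus strand) was at 11.5, 11.1 and 12.2 FPKM in line 1 and 3.09, 2.51 and 1.41 in line 2 (log2 change -2.14, SE 0.22, adjusted p = 6.53e-05). LotjaGi3g1v0317800_LC was at 11.8, 14.5 and 12.3 FPKM in line 1 and 5.89, 5.17 and 3.42 in line 2 (log2 change -1.35, SE 0.20, adjusted p = 0.00427). For both, WT control lay between the lines, at 7.79, 4.05 and 4.54 and 8.82, 7.42 and 6.71 FPKM. The last 4 were LotjaGi3g1v0498700_LC, higher in line 2 (log2 change 1.44), and assembled transcripts on chromosome 2 at 3.01 (start 72646171) and -1.61 (start 60957043) and on chromosome 3 at -2.13 (start 22348865), with adjusted p-values of 0.00111, 0.00415, 0.00509 and 3.99e-04. Each of these 4 lost its call with limma voom on the recovered reads. They also reached the 1 FPKM of the expression filter only in the line in which they were high.

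The line difference of the called genes was also read within each library set. The control ranges of the lines were apart for each of the 30 genes, so the sign within a set was fixed by that. The log2 changes in the lower set alone (1 line 1 and 2 line 2 libraries) and in the upper set alone (2 and 1) lay between 0.706 and 1.37 times the value over all libraries. Limma called 22 genes in the lower set alone, with 6 of the 30 among them, and 12 in the upper set alone, all of them among the 30; the lone library of a line was there assumed to vary like the other groups. With the library set as a term in the fit all 30 were called, among 41 genes in total.

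The salt libraries of the lines are separate libraries, so their values give the line difference a second time in other conditions. The calls are not independent of those in control, because the fit over all 18 libraries gave each gene 1 spread that both tests used. Limma called 355 genes in salt (1.74% of those tested), 188 higher and 167 lower in line 2. Of the 30 genes called without salt, all 30 had the same sign in salt and 26 were called in the same direction, 11 higher and 15 lower in line 2. The FPKM ranges of the lines were apart in salt for 28 of the 30, against 15.4% of all tested genes. The count of 355 rested on single libraries: it was 141 without line 1 salt replicate 1, 183 without line 1 salt replicate 2 and 172 without line 2 salt replicate 3, and the count of 26 called in both conditions lay between 21 and 25 on leaving out any of the 12 libraries. That count was 14 with only the groups compared, 14 with limma voom, 8 when only genes averaging 5 FPKM or more were tested, 4 in the lower set alone, 12 in the upper set alone and 65 with array weights.

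Values of the leading genes in salt show the repeat. The AGD14-like gene was at 12.3, 12.4 and 15.9 FPKM in line 1 and 3.49, 3.58 and 3.04 in line 2 (log2 change -1.85, SE 0.12, adjusted p = 1.78e-07). The transcript on the minus strand of chromosome 3 was again at 0 in all 3 line 2 libraries and at 16.6, 15.3 and 15.4 FPKM in line 1, at least 414-fold higher. The pentatricopeptide repeat gene stood at 1.41, 1.49 and 1.52 FPKM in line 1 and 5.38, 4.74 and 5.46 in line 2 (log2 change 1.53, adjusted p = 7.08e-07). None of these overlapped between the lines. The spastin-like gene was at 0.897, 0.777 and 0.247 FPKM in line 1 and 6.76, 4.62 and 3.59 in line 2 (log2 change 2.28, adjusted p = 1.48e-04). Its undescribed neighbour LotjaGi2g1v0369700_LC was at 1.85, 1.92 and 0.423 FPKM in line 2 with salt, below its 3 control libraries, and the log2 change was 1.71 (adjusted p = 0.00834). The change of that gene from control to salt in the line difference was -1.83 with an adjusted p of 0.122.

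The 4 genes that were not called in salt were among those nearest to the threshold in control. They were the Peroxidase 23-like gene (0.30, adjusted p = 0.668), the 2-isopropylmalate synthase (-0.23, adjusted p = 0.332), the transaldolase (-0.57, adjusted p = 0.0867) and the BC10-like gene (0.43, adjusted p = 0.0641), all as log2 changes of line 2 against line 1. The line ranges overlapped in salt for the first 2 of them. With salt the 2-isopropylmalate synthase was at 15.5, 15.2 and 18.7 FPKM in line 1 and 15.3, 12.8 and 13.8 in line 2, while WT with salt was at 38.1, 42.1 and 38.0. A test of the difference between the conditions called 0 of the 30 genes (6 at an unadjusted p under 0.05, and 0 and 1 with limma voom). For none of them was the line difference thus shown to depend on salt, nor was it shown not to. Over all genes that test called 63 (0.308%), a count that moved to between 15 and 110 on leaving out any library but line 1 control replicate 1 or line 2 salt replicate 2.

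**Figure D3:**
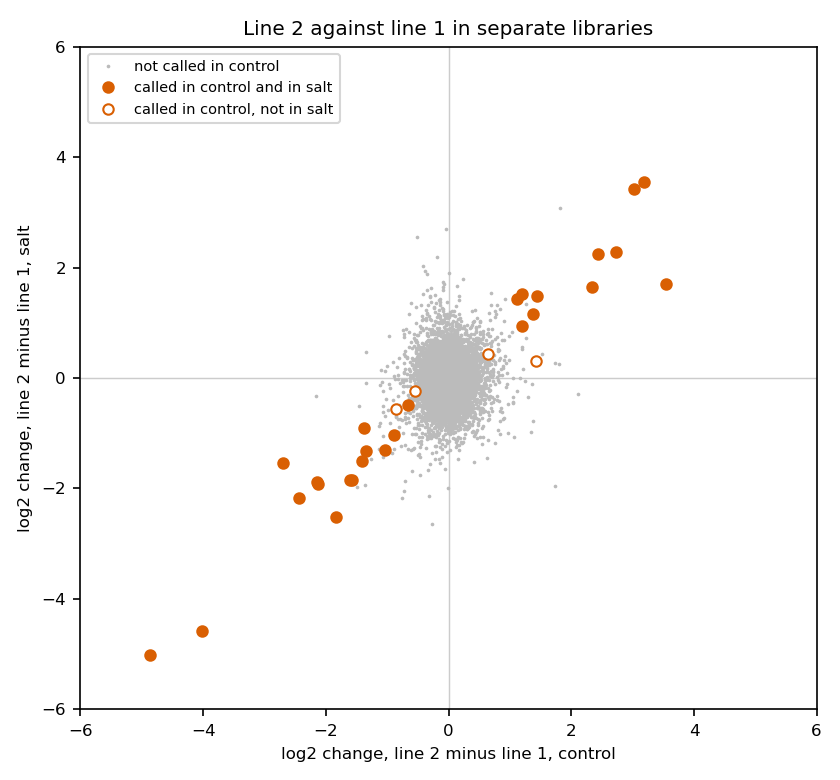
Log2 change of line 2 against line 1 in control (horizontal axis) and in salt (vertical axis) for the 20433 tested genes; filled orange points are the 26 genes called in both conditions, open ones the 4 called in control alone, and grey points the rest. The 30 called genes all lie in the lower left or upper right of the plot, with a Pearson r of 0.968 as a description over these genes and 0.0703 over the others.

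Beside WT control, the called genes fell into 3 kinds. The comparisons of line 1 and of line 2 with WT share the WT libraries, and each also uses the libraries that chose these genes, so the counts are a description. In 8 genes line 2 lay apart from WT while line 1 overlapped it, 4 of them higher and 4 lower in line 2. The FLA11-like gene, with 1.63, 1.57 and 1.84 FPKM in WT, and the AGD14-like gene belong here. In 8 others line 1 lay apart and line 2 overlapped WT, 3 higher and 5 lower in line 2, among them the pentatricopeptide repeat gene and the Bet v I gene. In the other 14 both lines lay apart from WT. The ranges of line 1 and WT were apart for 29.8% of all tested genes and those of line 2 and WT for 36.8%.

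**Figure D4:**
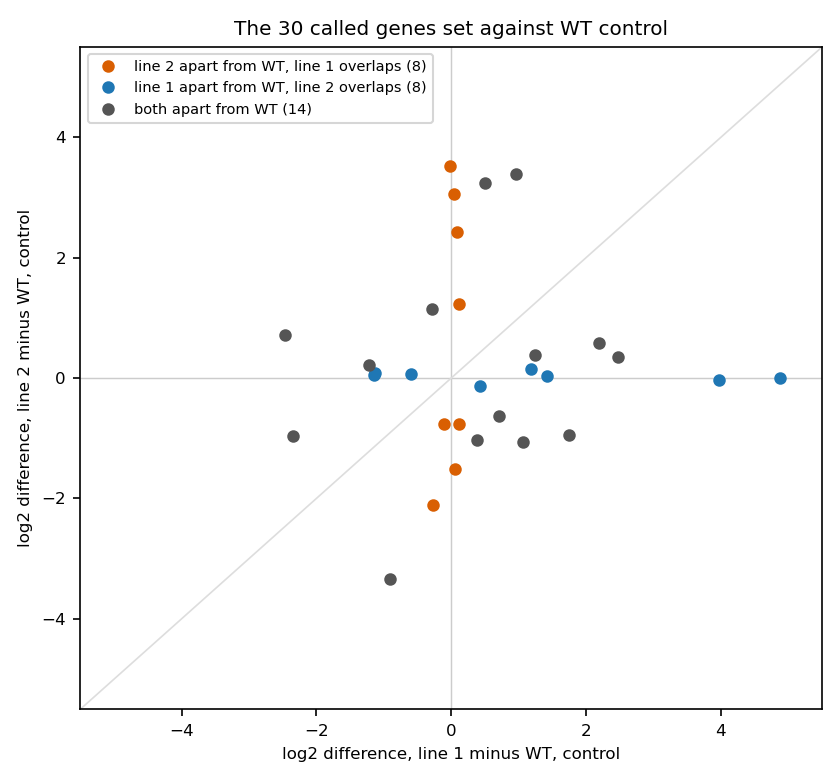
Log2 difference from WT control of line 1 (horizontal axis) and of line 2 (vertical axis) for the 30 genes called between the lines; colour gives which line's FPKM range lies apart from that of WT, and the diagonal marks equal differences. The 8 orange points lie close to 0 for line 1 and the 8 blue points close to 0 for line 2.

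In the 14 genes where both lines lay apart from WT, the lines stood on opposite sides of it in 7 and on the same side in 7. LotjaGi3g1v0243700_LC was -2.46 from WT in line 1 and 0.72 in line 2 on the log2 scale. The undescribed LotjaGi3g1v0317900_LC was 1.07 from WT in line 1 and -1.07 in line 2. The remorin gene was below WT in both lines, with log2 differences of -2.35 in line 1 and -0.96 in line 2.

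Called genes lay on all 6 chromosomes, with the highest shares on chromosomes 2 and 3. Chromosome 2 held 6 higher and 2 lower in line 2 of 2972 tested (0.269%) and chromosome 3 held 4 higher and 6 lower of 3783 (0.264%), beside 0.147% over all genes. Chromosome 5 held 1 higher and 3 lower of 2460 (0.163%), chromosome 6 held 2 higher and 0 lower of 2397 (0.0834%), chromosome 1 held 0 higher and 4 lower of 5394 (0.0742%) and chromosome 4 held 0 higher and 2 lower of 3271 (0.0611%). Of 280 windows of 2 Mb with tested genes, 23 held 1 called gene and 3 held more. Those were the window on chromosome 2 from 86 to 88 Mb with 3 genes higher, and windows on chromosomes 1 (130 to 132 Mb) and 3 (66 to 68 Mb) with 2 genes lower each. The nearest tested genes, 2 on each side of a called gene, gave 112 uncalled neighbours, with log2 changes from -0.48 to 0.64 and 0 over 2-fold.

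Genes of metabolism, hormones and stress were read by list. With 0.147% of all tested genes called, a list of these sizes would hold under 1 called gene at the background share, so a list without a call is not a result about that list. Of 42 lists of genes drawn by their descriptions, 38 had 0 called genes by limma, and limma voom called 1 gene in these 38. The 4 lists with a call were class III peroxidases (1 of 43, the Peroxidase 23-like gene), arabinogalactan proteins (1 of 27, the FLA11-like gene), pentatricopeptide repeat proteins (1 of 248) and retrotransposon-like genes (1 higher and 1 lower of 178). Of these, only the retrotransposon list was named in the plan of lists. The list patterns were written after the called genes had been seen, so a list with a call is no separate support. Median log2 changes ran from -0.25 for chloroplast-encoded genes to 0.13 for glutathione S-transferases, beside -0.01 over all tested genes. For the chloroplast-encoded genes the interval lay within 2-fold for 36 of 102, so the data bound that list less than the others. Its median was -0.16 within the lower set and -0.12 within the upper set.

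At an unadjusted p under 0.05 stood 3.67% of all tested genes, and over 10% in 7 of the 42 lists. These were terpene synthesis (6 of 26, 23.1%), the flavonoid core (8 of 40, 20%), cutin and suberin (4 of 24, 16.7%), osmolyte synthesis (6 of 37, 16.2%), aquaporins (4 of 29, 13.8%), abscisic acid (3 of 23, 13.0%) and cytochrome P450 (11 of 98, 11.2%). Limma called 0 genes in these 7 lists after adjustment, and limma voom called 1, in osmolyte synthesis. The summed FPKM of a list did not overlap between the lines in 14 of the 42 lists, higher in line 1 in 13 and in line 2 in 1, while the ranges of single genes were apart for 12.8% of those tested. Terpene synthesis genes summed to 550 to 601 FPKM in line 1 and 478 to 530 FPKM in line 2, and osmolyte synthesis genes to 977 to 1107 and 855 to 914 FPKM. Jasmonate genes summed to 2800 to 3145 FPKM in line 1 and 2310 to 2728 FPKM in line 2, and MYB factors to 1185 to 1253 and 1106 to 1129 FPKM. The list higher in line 2 was that of senescence and chlorophyll breakdown, at 772 to 836 FPKM in line 1 and 881 to 910 FPKM in line 2. After median-of-ratios rescaling, an alternative chosen after seeing the data, 15 lists were apart, 12 of them higher in line 1, and 13 of the 14 were shared; cutin and suberin then overlapped. Each sum here and below runs over all table entries of a list, including those that did not pass the expression filter. A sum is led by its most abundant genes, lists can share genes, and the sums were not tested. The share of single genes is no background for sums, and none was counted.

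The phenylpropanoid branches, which make lignin, flavonoids and the isoflavonoids typical of legumes, were among the lists without a call. In the flavonoid core 0 of 40 genes were called (8 at an unadjusted p under 0.05, which is 20% against 3.67% over all genes, and 0 and 8 with limma voom), with a median log2 change of -0.07 and 37 intervals within 2-fold. Isoflavonoid and pterocarpan genes had 0 of 28 called (0 unadjusted, 0 and 0 with voom), a median of 0.03 and 23 intervals within 2-fold. Their summed level was 664 to 760 FPKM in line 1 and 730 to 822 FPKM in line 2, with overlap between the lines. Lignin genes had 0 of 44 called (1 unadjusted, 0 and 1 with voom), all 44 intervals within 2-fold and a median of 0.06. Genes of the Casparian strip and of dirigent proteins, which guide lignan and lignin coupling, had 0 of 38 called (2 unadjusted, 0 and 4 with voom), and their summed level was 770 to 831 FPKM in line 1 and 650 to 757 FPKM in line 2, without overlap.

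Further lists without a call were those of stress and leaf function. Pathogenesis-related and defence genes had 0 of 61 called (2 unadjusted, 0 and 6 with voom), with a summed level of 3225 to 4776 FPKM in line 1 and 4225 to 5320 FPKM in line 2. Clock genes had 0 of 26 called (0 unadjusted, 0 and 1 with voom) and all 26 intervals within 2-fold, with sums of 664 to 755 FPKM in line 1 and 602 to 654 FPKM in line 2 that did not overlap. Photosystem and light-harvesting genes had 0 of 71 called (2 unadjusted, 0 and 4 with voom) and a median of -0.14, which was 0.03 within the lower set and -0.21 within the upper set. The median of that list therefore changed sign between the library sets, whose part in it was not tested. Of sodium, potassium and chloride transport genes 0 of 77 were called (1 unadjusted, 0 and 3 with voom) and 76 intervals lay within 2-fold.

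**Figure D5:**
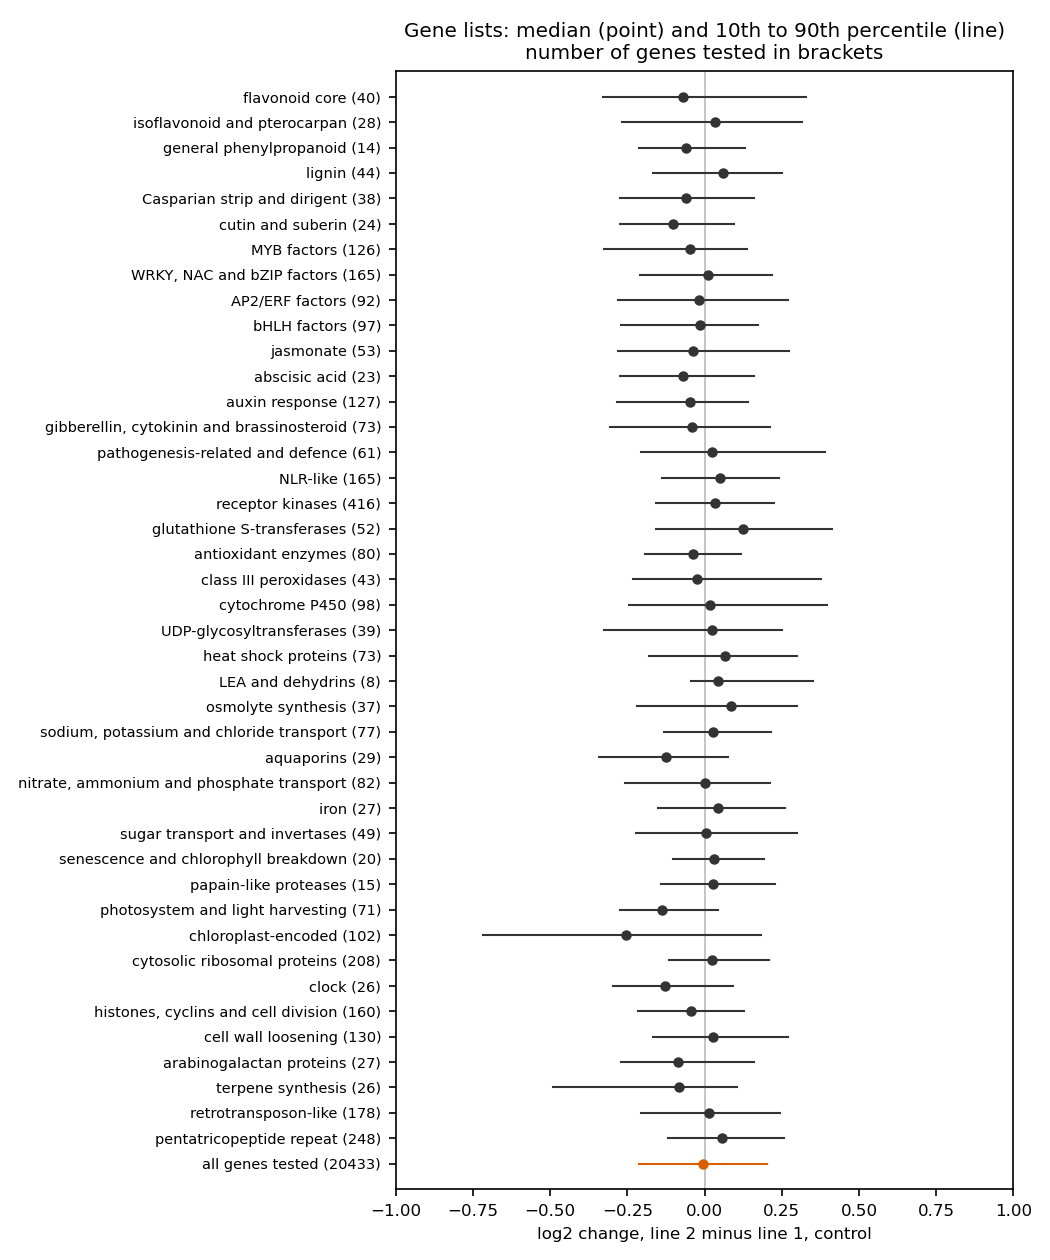
Median (point) and 10th to 90th percentile (line) of the log2 change of line 2 against line 1 in control over the tested genes of each of 42 lists, with the number of genes in brackets, and over all 20433 tested genes (orange). The medians lie between -0.25 and 0.13.

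Some genes that stood far from WT in both lines did not pass the test between the lines. These examples were chosen after their values were seen. SAG12 (LotjaGi6g1v0324100), a cysteine protease that marks ageing leaves, was at 137, 171 and 167 FPKM in line 1 and 208, 238 and 253 in line 2, against 2.89, 7.44 and 2.92 in WT control. The line ranges did not overlap, yet the log2 change of 0.56 (95% interval -0.10 to 1.21) did not pass the test. Ferritin-3 (LotjaGi3g1v0197600), an iron store of plastids, was at 931, 996 and 991 FPKM in line 1 and 963, 876 and 1073 in line 2, with a log2 change of -0.01 (-0.43 to 0.41). Chalcone synthase (LotjaGi2g1v0446700), the entry enzyme of flavonoid synthesis, was at 26.3, 24.4 and 26.5 and 21.9, 26.2 and 25.1 FPKM, with a log2 change of -0.08 (-0.55 to 0.39). Intervals of the latter pair lay within 2-fold, whereas for the sugar exporter SWEET10 (LotjaGi1g1v0335600) the interval of -0.37 to 1.80 around 0.71 was wide. Its line 1 libraries alone ran over 122, 31.3 and 96.9 FPKM.

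Some differences fell just outside the threshold. Galactinol synthase 2 (LotjaGi5g1v0232400), which starts the synthesis of raffinose sugars, was at 74.2, 113 and 73.1 FPKM in line 1 and 48.7, 44.1 and 49.8 in line 2 (log2 change -0.83, SE 0.16, adjusted p = 0.0595). An undescribed assembled transcript on the plus strand of chromosome 3 (13710732 to 13711371) was far more abundant than any called gene, at 15872, 15766 and 15911 FPKM in line 1 and 8776, 8635 and 11329 in line 2 (log2 change -0.74, SE 0.15, adjusted p = 0.0737). Neither pair of ranges overlapped. The largest log2 change that was not called among the 20433 tested genes, in LotjaGi6g1v0205000, an NADP-dependent glyceraldehyde-3-phosphate dehydrogenase, came with 7.28, 4.57 and 3.29 FPKM in line 1 and 1.70, 0.221 and 0.559 in line 2 (log2 change -2.16, SE 0.46, adjusted p = 0.135). The spread between the libraries of each line was wide for that gene.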

How the data were processed

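RNA-seq of polyadenylated RNA from Lotus japonicus shoots was read from 1 table of FPKM values per gene, deposited by the authors for 18 libraries. Per the labels' protocols, second-strand synthesis used dUTP, which keeps the strand. The submitters' processing notes name fastp, featureCounts 1.5.0-p3 and DESeq2 1.20.0. No source used here gives the aligner, genome build, annotation or strand setting. Reads of antisense or near-identical genes may therefore be shared, and coordinates are those of the deposited table. FPKM times gene length gave whole reads for 100% of values (tolerance 0.05). Of the identifiers, 0 matched the RefSeq gene table, so names are those of the table, given by similarity, and no sequences are shown.

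The main test was limma 3.58.1 under R 4.3.3, fitted to log2(FPKM + 0.5) by eBayes with trend, over all 18 libraries and 6 group means (12 residual degrees of freedom), two-sided, with Benjamini-Hochberg adjustment over 20433 genes (1 FPKM or more in 3 or more libraries) and a threshold of 0.05. The procedure was tested on simulated data. Library sets are the sign of the first principal component of the deviations from the group means; WT control replicate 3 was near its origin (0.00966). Alternatives were other pseudocounts, filters, scalings, weights, fits, sets and leave-one-out fits. Whether the replicate numbers pair libraries of the lines was not settled.

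The members, tests and lists were chosen with earlier results of these data known, and the list patterns were written after the called genes had been seen. Named genes are those called with a description and the genes described as MYB36, and undescribed or uncalled genes were named after their values were seen. The text names no cause of any difference.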

Additional observations from a re-analysis of the deposited data

Results flagged for a closer look

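The line difference itself differed between control and salt for 63 genes, by limma's test of the difference between the conditions. Only genes with a Swiss-Prot name and a mean of at least 5 FPKM in a group of either line were ranked. Those with the largest difference in each direction are given here with their values. The count of 63 moved with single libraries, as stated with it above.

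Proline dehydrogenase 1 (LotjaGi1g1v0523800), which breaks down proline in mitochondria, was at 41.9, 44.0 and 41.1 FPKM in line 1 and 63.4, 73.4 and 61.8 in line 2 without salt. With salt it was at 71.3, 67.6 and 47.6 FPKM in line 1 and 31.6, 22.8 and 29.8 in line 2. The ranges were apart in both conditions and in opposite order. The log2 line difference changed by -1.76 from control to salt (SE 0.20, adjusted p = 0.00109). The abscisic acid receptor PYL4 (LotjaGi1g1v0074000) was at 1.02, 1.29 and 1.19 FPKM in line 1 and 2.5, 2.15 and 1.60 in line 2 without salt, and at 8.71, 6.94 and 6.56 and 1.88, 2.22 and 3.20 FPKM with salt. Its log2 line difference changed by -2.07 from control to salt (SE 0.27, adjusted p = 0.00327). Without salt neither gene was called between the lines.

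In the opposite direction, the Dof transcription factor gene LotjaGi1g1v0209300, similar to Arabidopsis DOF5.4, was at 47.5, 64.3 and 60.4 FPKM in line 1 and 34.2, 43.1 and 51.3 in line 2 without salt, with overlapping ranges. With salt it was at 5.05, 7.73 and 14.1 and 29.6, 40.6 and 36.3 FPKM. Its log2 line difference changed by 2.45 from control to salt (SE 0.37, adjusted p = 0.00992). LotjaGi1g1v0115200 is similar to the Arabidopsis CCT-motif protein CHLOROPLAST IMPORT APPARATUS 2. It was at 16.1, 18.5 and 21.1 and 12.6, 17.3 and 19.6 FPKM without salt. With salt it was at 1.28, 1.90 and 1.19 and 6.42, 6.94 and 13.0 FPKM. Its log2 line difference changed by 2.38 from control to salt (SE 0.40, adjusted p = 0.0166). For these genes the lines stood apart with salt and overlapped without it.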

How the results depend on the processing

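Direction was kept by the 30 genes in every alternative in which they had a value, with 0 reversed. Because their control ranges did not overlap, this was fixed in advance for fits that change only the filter, the pseudocount or the libraries. Of the 30, 21 were called in all 6 fits that left out 1 control library (23 to 25 genes called). The count of 30 in control moved by more than 1.5 times with a mean FPKM of at least 5 (8 genes), array weights (400), limma voom (19) and the upper set alone (12). The 355 in salt moved with only the groups compared (40), array weights (1005), the library set as a term (564), the lower set alone (9) and the upper set alone (186), and ran from 141 to 436 on leaving out 1 library. The 63 that differed between conditions moved with no filter (31), only the groups compared (26), array weights (708), the library set as a term (139), the lower set alone (0 by limma, with 1613 at an unadjusted p under 0.05) and the upper set alone (1), and ran from 15 to 110 on leaving out 1 library. The 26 called in both conditions moved with a mean FPKM of at least 5 (8), only the groups compared (14), array weights (65), limma voom (14), the lower set alone (4) and the upper set alone (12), and ran from 21 to 25 on leaving out 1 library. The filter and the smaller fits test fewer genes or libraries by construction; otherwise the cause was not tested. Weights in line 1 control ran from 0.294 to 8.20. With the replicate number as a block, 30 genes were called in control (28 of them shared), 337 in salt, 62 for the difference and 28 in both. Correlations of same-numbered line 1 and line 2 libraries were 0.188, -0.193 and 0.168. Their signs go with the library sets, which replicates 1 and 3 shared and replicate 2 did not. The correlations therefore cannot show whether the numbers pair the libraries. Depth limits genes near the filter.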

Other observations

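The line difference depended on the condition in other genes too, of which 3 are given. REVEILLE 6 (LotjaGi5g1v0296400) is a MYB-like factor of the circadian clock. Without salt it was at 30.2, 24.3 and 25.1 FPKM in line 1 and 20.7, 20.2 and 19.7 in line 2. With salt it was at 2.21, 2.66 and 4.39 and 12.2, 10.9 and 15.6 FPKM. Its log2 line difference changed by 2.31 from control to salt (SE 0.34, limma adjusted p = 0.00763). Beta-amylase 3 (LotjaGi2g1v0417900) is of an enzyme family of starch breakdown in plastids. Without salt it was at 96.7, 134 and 131 and 93.2, 102 and 99.4 FPKM. With salt it was at 19.7, 29.4 and 35.1 and 78.6, 94.6 and 86.1 FPKM (change in the log2 line difference 1.92, SE 0.32, adjusted p = 0.0162). ZINC INDUCED FACILITATOR-LIKE 1 (LotjaGi3g1v0101900), a membrane transporter, was at 3.21, 2.67 and 2.83 and 3.16, 3.66 and 2.83 FPKM without salt, with overlapping ranges. With salt it was at 12.7, 12.4 and 12.6 and 5.40, 4.74 and 4.92 FPKM (change in the log2 line difference -1.37, SE 0.16, adjusted p = 0.00109). These were named after their values were seen.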
